A study of Mus musculus with 9 samples.

Results

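The genes of the Usher syndrome protein complex were described in sorted cells of the newborn mouse retina. The complex was taken as 9 genes: Myo7a, Ush1c, Ush1g, Cdh23, Pcdh15, Adgrv1, Whrn, Clrn1 and Cib2. Each gene was represented by the probe set annotated to its symbol alone that had the highest mean over all arrays. By that rule 7 of the 9 genes, with 14 probe sets among them, were measured, out of 18193 genes in all. Ush1g and Cib2 were not listed with a probe set of their own in the annotation used and were not analysed here.

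The series held 9 Affymetrix arrays in 3 groups of 3 biological replicates, on a shared C57BL/6J-129/Ola background. The rhoGFP-positive and rhoGFP-negative groups were the GFP-positive and GFP-negative fractions of retinae of the rhoEGFP line at postnatal day 4. The nestinGFP-positive group was the GFP-positive fraction of retinae of the pNestin-GFP line at postnatal day 0. A replicate was a pool of 6 to 8 mice and not a single animal. The nestinGFP-positive group differed from both others in line and in age, and these cannot be told apart from the sorted fraction. The labels do not say which regulatory sequence or allele drives GFP in either line.

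Variants that disable most of these genes are tied in people to Usher syndrome, inherited deafness joined with a slow degeneration of the retina. In the hair cells of the inner ear the proteins link stereocilia to each other and to the actin core, and the cadherins Pcdh15 and Cdh23 form the tip link that pulls on the transduction channel. In photoreceptors they sit around the connecting cilium and the synapse, and the motor Myo7a also moves pigment granules and phagosomes in the pigment epithelium.

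Myo7a and Pcdh15 were the members with called differences, so the 250 bases before their starts are shown (RefSeq, build GRCm38.p6, 5′ to 3′ in the direction of the gene). The first lies at chr7:98119494-98119743 on the minus strand, before the upstream of the pair of Myo7a starts listed. The second lies at chr10:73821617-73821866 on the plus strand, before the start of Pcdh15. Capitals mark each match to TGCTGA or its reverse complement TCAGCA, letters found in the binding site of Nrl, the transcription factor that sets rod fate.
Myo7a: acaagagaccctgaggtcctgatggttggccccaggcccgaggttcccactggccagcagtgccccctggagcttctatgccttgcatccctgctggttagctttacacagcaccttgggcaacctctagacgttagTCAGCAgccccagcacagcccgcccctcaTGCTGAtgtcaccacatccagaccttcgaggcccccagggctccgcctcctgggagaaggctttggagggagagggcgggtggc
Pcdh15: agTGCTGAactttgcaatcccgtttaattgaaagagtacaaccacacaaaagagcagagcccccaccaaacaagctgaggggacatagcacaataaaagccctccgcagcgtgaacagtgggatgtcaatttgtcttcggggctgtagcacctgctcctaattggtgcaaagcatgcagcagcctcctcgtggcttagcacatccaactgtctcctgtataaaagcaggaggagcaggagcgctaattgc
Myo7a held 2 matches in this window, at position -113 from the start on the reverse strand and at position -84 on the forward strand. Pcdh15 held 1 match, at position -248. The other search was for TAATCC and its reverse complement GGATTA, the core of the site of the photoreceptor factor Crx, in windows of 300 bases that ran 50 bases past the start. Over the 9 windows listed for 8 of the 9 genes, 3 held a match to either, and the only other was a TAATCC match in Adgrv1. The window of the other Myo7a start, not shown, held no match to either. Among all 32851 promoter windows of the same length, 19.5% held TGCTGA on either strand, 7.06% held TAATCC and 25.2% held at least 1 of the 2. These are matches of letters only, and binding was not measured.

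Between the rhoGFP-positive and rhoGFP-negative fractions of the rhoEGFP line, Myo7a was 3.22-fold and Pcdh15 4.70-fold higher in the positive fraction. Those were the 2 of 7 measured members that passed the call, a limma adjusted p below 0.05 with a log2 difference of at least 1 in size. Among all 18193 genes, 3.61% were called higher and 7.32% lower in this comparison, and no member was called lower. The median log2 difference of the 7 members was 0.25, against 0.01 over all genes. These are bulk samples, in which more cells of a type and more RNA per cell cannot be told apart. Values are RMA log2 signals, which are compressed at low signal and come without detection calls. Levels of different probe sets were compared only to pick the representing probe set and to mark dim signals, not as amounts of RNA.

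**Figure D1:**
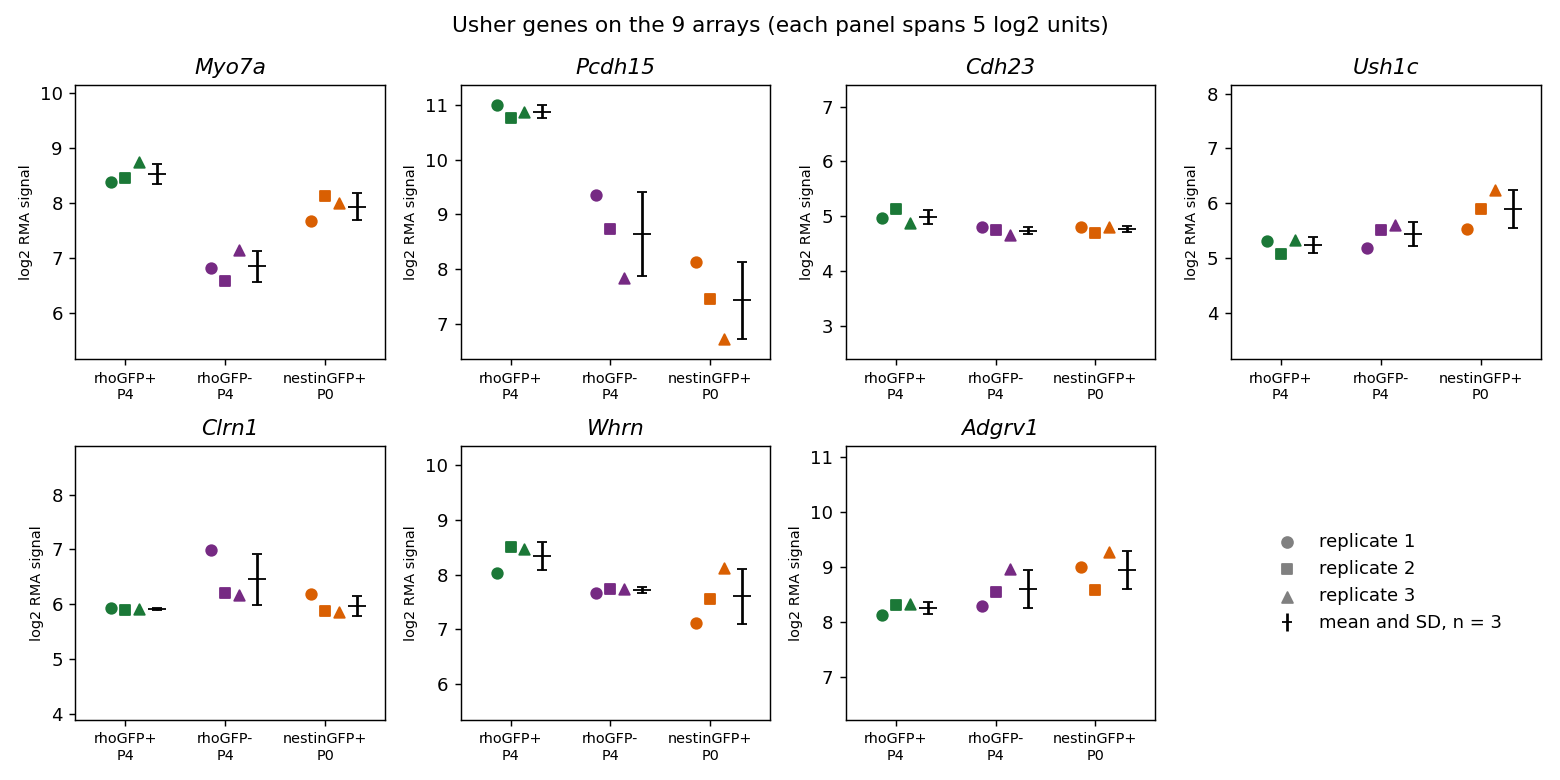
RMA log2 signal (y axis) of the 7 measured Usher genes on each of 9 arrays in the 3 sorted groups (x axis), with a symbol for each replicate and the group mean and SD (n = 3) beside them. Myo7a spans 8.38 to 8.74 in rhoGFP-positive and 6.58 to 7.14 in rhoGFP-negative cells, and Pcdh15 spans 10.76 to 11.0 and 7.84 to 9.35, while Cdh23 lies between 4.66 and 5.13 on every array.

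Myo7a encodes the unconventional myosin of the complex, the motor that carries or anchors the other members along actin. Like Ush1c and Clrn1, Myo7a was measured by 1 probe set, so no second probe set could be set beside it. Its log2 signals were 8.38, 8.46 and 8.74 in replicates 1 to 3 of the rhoGFP-positive cells and 6.80, 6.58 and 7.14 in the rhoGFP-negative cells. The nestinGFP-positive cells gave 7.67, 8.13 and 8.01. The 3 groups did not overlap: rhoGFP-positive was highest, nestinGFP-positive lay between and rhoGFP-negative was lowest.

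The group means of Myo7a were 8.53 ± 0.19, 7.93 ± 0.24 and 6.84 ± 0.28 (SD, n = 3) in that order. Against the rhoGFP-negative cells the log2 difference was 1.69 ± 0.18 (SE, limma; 95% interval 1.30 to 2.08; adjusted p = 9.4e-05), and it was positive in each of the 3 same-numbered pairs, at 1.58, 1.88 and 1.61. It ranked 242 among the 18193 genes from the highest difference down. The difference from the nestinGFP-positive cells was smaller, at 0.60 ± 0.18 (0.20 to 0.99; adjusted p = 0.0241), and did not reach the minimum size.

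Between the rhoGFP-negative and nestinGFP-positive cells Myo7a fell by 1.09 on the log2 scale, 2.13-fold (SE 0.18, 95% interval -1.48 to -0.70, adjusted p = 0.0217). It was the only member of 7 called there, in a comparison in which 0.385% of all genes were called higher and 0.605% lower. This call depended on which arrays entered the fit. With only the 6 arrays of these groups in the fit the adjusted p was 0.0736, and it rose above 0.05 without rhoGFP-negative replicate 1 (0.0797) or replicate 2 (0.0745), or without nestinGFP-positive replicate 2 (0.0937) or replicate 3 (0.0696). The difference stayed between -1.24 and -0.96 whichever array was left out.

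Pcdh15 encodes a protocadherin, the lower part of the tip link of hair cells. Its signals were 11.0, 10.76 and 10.87 in the rhoGFP-positive cells, 9.35, 8.74 and 7.84 in the rhoGFP-negative cells and 8.13, 7.45 and 6.73 in the nestinGFP-positive cells. The rhoGFP-positive arrays lay close to each other and above all the rest, while the other 2 groups were spread widely and overlapped.

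The group means of Pcdh15 were 10.9 ± 0.12, 8.64 ± 0.76 and 7.43 ± 0.70 (SD, n = 3). The rhoGFP-positive cells exceeded the rhoGFP-negative cells by 2.23 ± 0.40 (SE, limma; 1.34 to 3.12; adjusted p = 0.00247) and ranked the gene 120 of 18193. They exceeded the nestinGFP-positive cells by 3.44 ± 0.40 (2.55 to 4.33; adjusted p = 0.000109), a 10.8-fold difference and rank 52. In same-numbered pairs the differences were 1.65, 2.02 and 3.03 in the first comparison and 2.87, 3.31 and 4.14 in the second. Pcdh15 was the 1 member of 7 called against the nestinGFP-positive cells, where 5.06% of all genes were called higher and 10.5% lower.

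Between the rhoGFP-negative and nestinGFP-positive cells Pcdh15 differed by 1.21 ± 0.40 (0.32 to 2.10), 2.31-fold, and was not called (adjusted p = 0.147). The same-numbered pairs gave 1.22, 1.29 and 1.11, a far narrower range than the arrays within a group. With the replicate number as a block the adjusted p was 0.0108, past the threshold. The labels state no pairing of these groups, which differ in line and age. Without rhoGFP-negative replicate 3, the lowest of its group, the difference was 1.61 and the adjusted p 0.034.

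**Figure D2:**
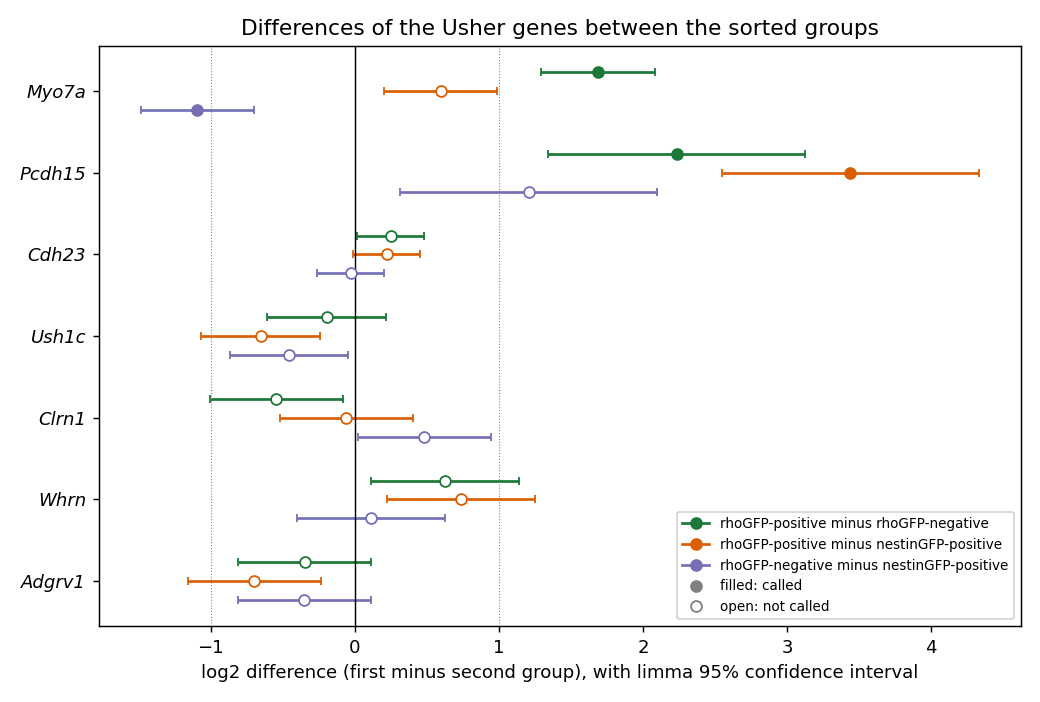
Log2 difference of each of the 7 measured Usher genes (x axis, with the 95% confidence interval from limma) in the 3 comparisons between groups, which share groups with each other. Filled points are called and open points are not: Myo7a is called at 1.69 and -1.09 and Pcdh15 at 2.23 and 3.44, and no other gene has a filled point.

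All 3 probe sets of Pcdh15 gave the same order of groups. In a fit of all 45037 probe sets, in which 8.02% were called in the comparison with rhoGFP-negative cells and 12.2% in that with nestinGFP-positive cells, each of the 3 was called in both. The second probe set, 1421503_at, was at 10.26, 10.71 and 10.54 in rhoGFP-positive, 8.16, 8.06 and 7.56 in rhoGFP-negative and 6.91, 7.04 and 6.34 in nestinGFP-positive cells. These groups did not overlap on any array. The differences of the rhoGFP-positive cells were 2.58 (5.98-fold, adjusted p = 8.42e-05) and 3.74 (13.4-fold, adjusted p = 8.39e-06). The third, 1442326_at, was at 9.08, 9.51 and 9.51, then 7.57, 6.93 and 6.09, then 6.59, 5.44 and 6.08, with differences of 2.50 (adjusted p = 0.00182) and 3.33 (adjusted p = 0.000214). Between rhoGFP-negative and nestinGFP-positive cells none of the 3 passed, at 1.21, 1.16 and 0.83.

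**Figure D3:**
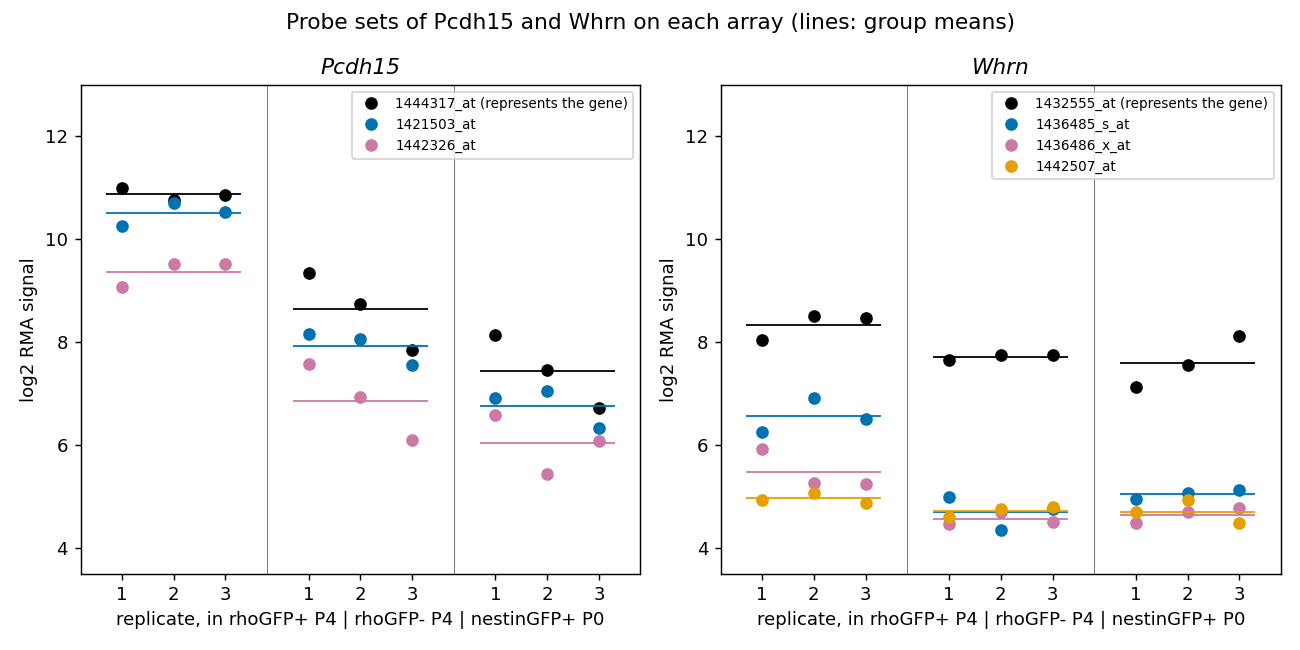
RMA log2 signal (y axis) of every probe set of Pcdh15 (3) and Whrn (4) by replicate in the 3 groups (x axis), with a line at each group mean. The Pcdh15 probe sets are all highest in rhoGFP-positive cells, whereas those of Whrn differ, with 1436485_s_at at 6.26 to 6.91 in rhoGFP-positive and 4.35 to 4.99 in rhoGFP-negative cells and the representing 1432555_at at 8.04 to 8.51 and 7.66 to 7.75.

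Cdh23, the cadherin that forms the upper part of the tip link with Pcdh15 below it, was dim. Its signals were 4.97, 5.13 and 4.87 in rhoGFP-positive, 4.80, 4.76 and 4.66 in rhoGFP-negative and 4.80, 4.70 and 4.80 in nestinGFP-positive cells. The mean over all arrays stood at percentile 28.1 of all probe sets, and that of its second probe set at 20.6. The rhoGFP-positive arrays lay above the others without overlap, by 0.25 ± 0.10 (SE, limma adjusted p = 0.117) against rhoGFP-negative and 0.22 ± 0.10 (adjusted p = 0.126) against nestinGFP-positive cells. The second probe set of Cdh23 gave 0.14 (adjusted p = 0.503) and -0.03 (adjusted p = 0.885). Since low signals are compressed in RMA, these values bound the difference of Cdh23 RNA only loosely.

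Whrn encodes whirlin, the PDZ scaffold that holds Adgrv1 in place at the ciliary base of photoreceptors and at the ankles of stereocilia. The probe set that represents it gave 8.04, 8.51 and 8.47 in rhoGFP-positive, 7.66, 7.75 and 7.75 in rhoGFP-negative and 7.12, 7.56 and 8.13 in nestinGFP-positive cells. The rhoGFP-positive arrays lay above the rhoGFP-negative ones, by 0.62 ± 0.23 (0.11 to 1.14), which was not called (adjusted p = 0.0789). That limma adjusted p depended on the fit. It was 0.0144 with the replicate block, 0.0181 with only the 6 arrays compared and 0.227 without rhoGFP-positive replicate 2. In each of these fits the difference was under the minimum size. Against nestinGFP-positive cells, where the arrays overlapped, the difference was 0.74 ± 0.23 (adjusted p = 0.0302), under the minimum size.

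The 4 probe sets of Whrn did not give the same result. 1436485_s_at read 6.26, 6.91 and 6.51 in rhoGFP-positive, 4.99, 4.35 and 4.76 in rhoGFP-negative and 4.94, 5.08 and 5.13 in nestinGFP-positive cells. It was called in both comparisons in the fit of all probe sets, 3.63-fold higher (1.86 ± 0.20, adjusted p = 0.00025) and 2.85-fold higher (1.51 ± 0.20, adjusted p = 0.000476). The neighbouring 1436486_x_at differed by 0.91 (adjusted p = 0.00829) and 0.82 (adjusted p = 0.00902), below the minimum size, and the dim 1442507_at by 0.24 and 0.26 with no call. With the mean of the 4 probe sets in place of the brightest, Whrn differed by 0.91 (adjusted p = 0.000194) and 0.83 (adjusted p = 0.000191). Which transcripts each probe set reads was not examined here.

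Ush1c encodes harmonin, the PDZ scaffold that binds Myo7a and the tails of both cadherins. Its signals were 5.31, 5.07 and 5.34 in rhoGFP-positive, 5.19, 5.51 and 5.61 in rhoGFP-negative and 5.54, 5.90 and 6.24 in nestinGFP-positive cells. The group mean was lowest in the rhoGFP-positive cells, with overlap between the rhoGFP-positive and rhoGFP-negative arrays. The difference was -0.20 ± 0.18 (limma adjusted p = 0.536) against rhoGFP-negative and -0.65 ± 0.18 (-1.06 to -0.24; adjusted p = 0.0197) against nestinGFP-positive cells, the second past the p threshold and short of the minimum size.

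Adgrv1, the very large adhesion receptor of the ankle links and the periciliary membrane, likewise had its lowest group mean in the rhoGFP-positive cells. It read 8.13, 8.31 and 8.32 there, 8.29, 8.54 and 8.97 in rhoGFP-negative and 9.0, 8.58 and 9.27 in nestinGFP-positive cells. Its differences were -0.35 ± 0.21 (adjusted p = 0.289) and -0.70 ± 0.21 (-1.16 to -0.24; adjusted p = 0.0243), so it too was not called. Its second probe set lay at percentile 5.62 of signal and was not called in any comparison.

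Clrn1 encodes clarin, a tetraspan membrane protein. It read 5.93, 5.89 and 5.91 in rhoGFP-positive, 7.00, 6.20 and 6.17 in rhoGFP-negative and 6.18, 5.87 and 5.86 in nestinGFP-positive cells. The rhoGFP-negative arrays lay above the rhoGFP-positive ones, mostly through replicate 1. The difference of rhoGFP-positive minus rhoGFP-negative cells was -0.54 ± 0.21 (-1.01 to -0.08; adjusted p = 0.0887), and it was -0.06 ± 0.21 (adjusted p = 0.844) against nestinGFP-positive cells. With the replicate block the first had a limma adjusted p of 0.0209, still short of the minimum size.

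Counted over the members, the arrays of rhoGFP-positive and rhoGFP-negative cells did not overlap in 5 of 7 genes, Myo7a, Pcdh15, Cdh23 and Whrn above and Clrn1 below, where 38.2% of all genes did not overlap. Against nestinGFP-positive cells 5 of 7 did not overlap, Myo7a, Pcdh15 and Cdh23 above and Ush1c and Adgrv1 below, beside 47.8% of all genes. With an adjusted p below 0.05 and no minimum size, 5 of 7 members passed that comparison, Myo7a, Pcdh15 and Whrn higher and Ush1c and Adgrv1 lower, beside 35.8% of all genes. This count rested on single arrays: it was 1 (Pcdh15) without rhoGFP-positive replicate 2, 2 (Pcdh15 and Ush1c) without rhoGFP-positive replicate 3 or without nestinGFP-positive replicate 1, and 3 without nestinGFP-positive replicate 2 or replicate 3. Pcdh15 passed in each of these fits, and with only the 6 arrays compared Whrn did not (adjusted p = 0.0603). Between rhoGFP-negative and nestinGFP-positive cells only Myo7a did not overlap, 1 of 7 beside 20.6% of all genes. In that comparison the differences of Ush1c (-0.46, adjusted p = 0.226), Clrn1 (0.48, adjusted p = 0.254), Adgrv1 (-0.35, adjusted p = 0.425), Whrn (0.11, adjusted p = 0.843) and Cdh23 (-0.03, adjusted p = 0.91) were not called. The median of the 7 members was 0.22 against nestinGFP-positive cells and -0.03 in the last comparison, beside 0.06 and 0.03 over all genes.

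Levels of cell type markers were set beside these differences. All 6 measured rod markers were called higher in rhoGFP-positive cells in both comparisons. Beside them were 3.61% of all genes against rhoGFP-negative and 5.06% against nestinGFP-positive cells. The mean log2 signal of the 6 markers was 12.1, 11.9 and 11.7 in rhoGFP-positive, 8.80, 8.36 and 7.95 in rhoGFP-negative and 8.23, 7.86 and 7.31 in nestinGFP-positive cells. In the latter 2 groups this mean had the same order of replicates as Pcdh15. So did Pde6b, Sag and Rdh12 in both groups, but not Nrl, Gnat1 and Cnga1. Of the 6 rod markers 1 was called higher in rhoGFP-negative than in nestinGFP-positive cells, beside 0.385% of all genes. The part of rod content in the spread of Pcdh15 was not tested.

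Myo7a is also expressed in the pigment epithelium, which adheres to the retina. Of 11 markers of that tissue 2 were called higher in rhoGFP-positive than in rhoGFP-negative cells, beside 3.61% of all genes. These were Tyrp1, a melanin enzyme, by 1.94 (adjusted p = 1.47e-05) and Rgr, an opsin-like protein also found in Müller glia, by 1.43 (adjusted p = 7.16e-05). Rpe65, the visual cycle isomerase specific to that tissue, read 5.20, 5.49 and 5.30 against 4.90, 5.36 and 5.20 and was not called (0.18, adjusted p = 0.428). In all, 9 of the 11 were not called in this comparison, Dct among them at -0.45 (limma adjusted p = 0.0808). The median difference of the 11 was 0.11, beside 0.01 over all genes. The mean of the 11 markers, which includes Tyrp1 and Rgr, spanned 5.65 to 5.77 in rhoGFP-positive, 5.35 to 5.45 in rhoGFP-negative and 5.16 to 5.27 in nestinGFP-positive cells. This mean was lowest in the nestinGFP-positive cells, and Myo7a was lowest in the rhoGFP-negative cells. The part of these markers' cells in the level of Myo7a was not tested in any group.

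**Figure D4:**
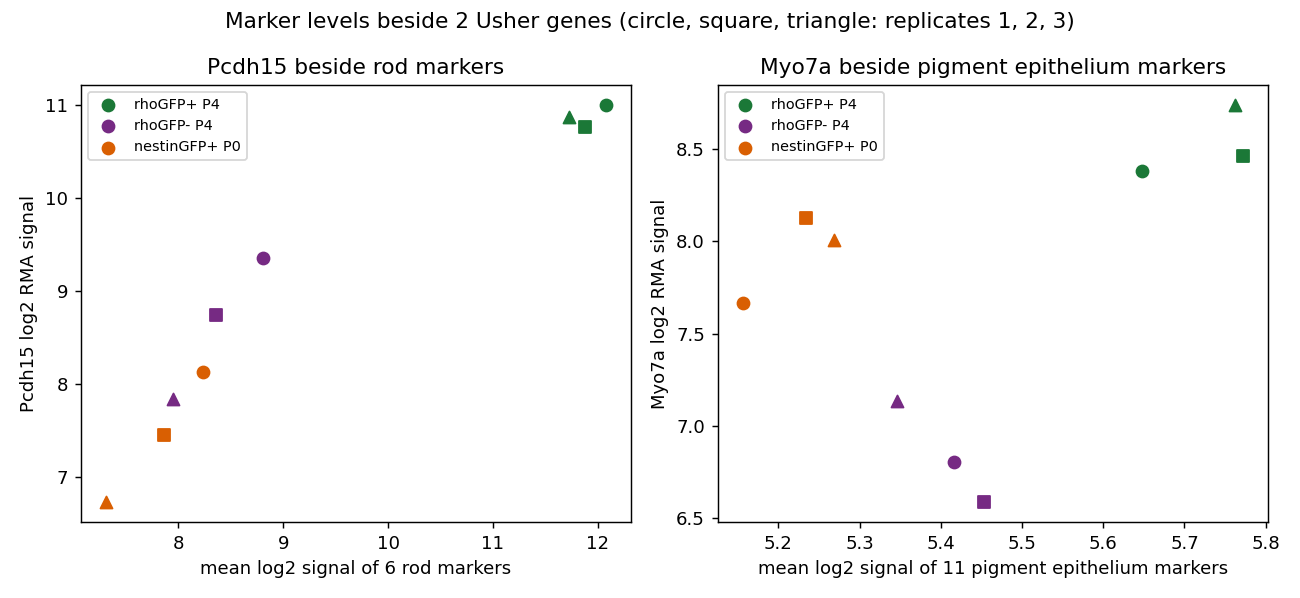
Left, Pcdh15 log2 signal (y axis) against the mean log2 signal of 6 rod markers (x axis), and right, Myo7a against the mean of 11 pigment epithelium markers, with 1 point per array coloured by group. The rod marker mean spans 7.31 to 12.1 and Pcdh15 shares its order of replicates in the rhoGFP-negative and nestinGFP-positive groups, while the nestinGFP-positive arrays lie lowest on the pigment epithelium axis and between the other groups in Myo7a. Of the 11 pigment epithelium markers, 2 were called higher in rhoGFP-positive than in rhoGFP-negative cells, beside 3.61% of all genes.

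Genes of proteins that bind the complex were followed in a list of 17, of which 15 were measured. In the rhoGFP-positive against the rhoGFP-negative cells 3 were called higher and 1 lower, beside 3.61% and 7.32% of all genes. Against the nestinGFP-positive cells 2 were higher and 1 lower, beside 5.06% and 10.5%. None of the 15 was called between the rhoGFP-negative and nestinGFP-positive cells, where 0.385% of all genes were called higher and 0.605% lower. Among those not called there were Eps8 (0.43, limma adjusted p = 0.0783), Espn (-0.73, adjusted p = 0.23) and Myo3b (0.24, adjusted p = 0.255). The list medians were 0.14, 0.25 and 0.07 in the 3 comparisons, beside 0.01, 0.06 and 0.03 over all genes.

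Among these partners Plekhb1, a membrane protein of photoreceptors that binds Myo7a, read 13.2, 13.3 and 13.2 in rhoGFP-positive, 11.1, 10.9 and 10.9 in rhoGFP-negative and 10.4, 10.9 and 11.0 in nestinGFP-positive cells. It was 4.69-fold higher (2.23 ± 0.16, adjusted p = 1.09e-05) and 5.48-fold higher (2.45 ± 0.16, adjusted p = 3.61e-06) in the rhoGFP-positive cells. Myrip, the adaptor that joins Myo7a to Rab27a on pigment granules and vesicles, read 8.29, 8.14 and 8.47, then 6.51, 6.68 and 6.27, then 6.61, 6.61 and 6.58. Its differences were 1.81 ± 0.13 (3.51-fold, adjusted p = 1.15e-05) and 1.70 ± 0.13 (3.25-fold, adjusted p = 9.01e-06). In both genes every rhoGFP-positive array lay above all others, and rhoGFP-negative minus nestinGFP-positive cells gave 0.23 (adjusted p = 0.508) for Plekhb1 and -0.11 (adjusted p = 0.713) for Myrip, neither called.

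Rab27a, the small GTPase of that Myrip tether, was not called through the probe set that represents it (0.18, adjusted p = 0.431). Another of its probe sets, 1429123_at, read 5.53, 5.69 and 7.04 in rhoGFP-positive, 4.14, 4.35 and 4.39 in rhoGFP-negative and 4.05, 4.33 and 4.48 in nestinGFP-positive cells. It was called against the rhoGFP-negative cells in the fit of all probe sets (1.79 ± 0.34, adjusted p = 0.00623), and its highest array was rhoGFP-positive replicate 3. On that array the mean of 7 microglia markers was 6.72, beside 5.26 and 5.51 on the other rhoGFP-positive arrays, and their part in this value was not tested.

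Lca5, which encodes the ciliary protein lebercilin, read 9.61, 9.08 and 8.96 in rhoGFP-positive, 8.36, 7.75 and 7.95 in rhoGFP-negative and 8.58, 8.19 and 7.98 in nestinGFP-positive cells. It was 2.29-fold higher than in rhoGFP-negative cells (1.20 ± 0.22, adjusted p = 0.00333), and the 0.97 ± 0.22 against nestinGFP-positive cells was just short of the minimum size (adjusted p = 0.0074). Its second probe set differed by 0.77 and 0.94 and was not called.

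Espn, the actin-bundling protein espin of stereocilia and microvilli, went the other way. It read 6.15, 6.21 and 6.56 in rhoGFP-positive, 7.57, 8.14 and 8.41 in rhoGFP-negative and 8.20, 8.74 and 9.38 in nestinGFP-positive cells. It fell by 1.74 on the log2 scale relative to rhoGFP-negative cells, 3.33-fold (SE 0.30, adjusted p = 0.00198), and fell by 2.47 relative to nestinGFP-positive cells, 5.53-fold (SE 0.30, adjusted p = 0.000139). Eps8, an actin regulator of stereocilium tips, differed by 0.27 and 0.70 through the probe set that represents it, with no call. Its other 2 probe sets were called higher than in nestinGFP-positive cells, at 1.08 (adjusted p = 0.00455) and 1.24 (adjusted p = 0.0102).

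**Figure D5:**
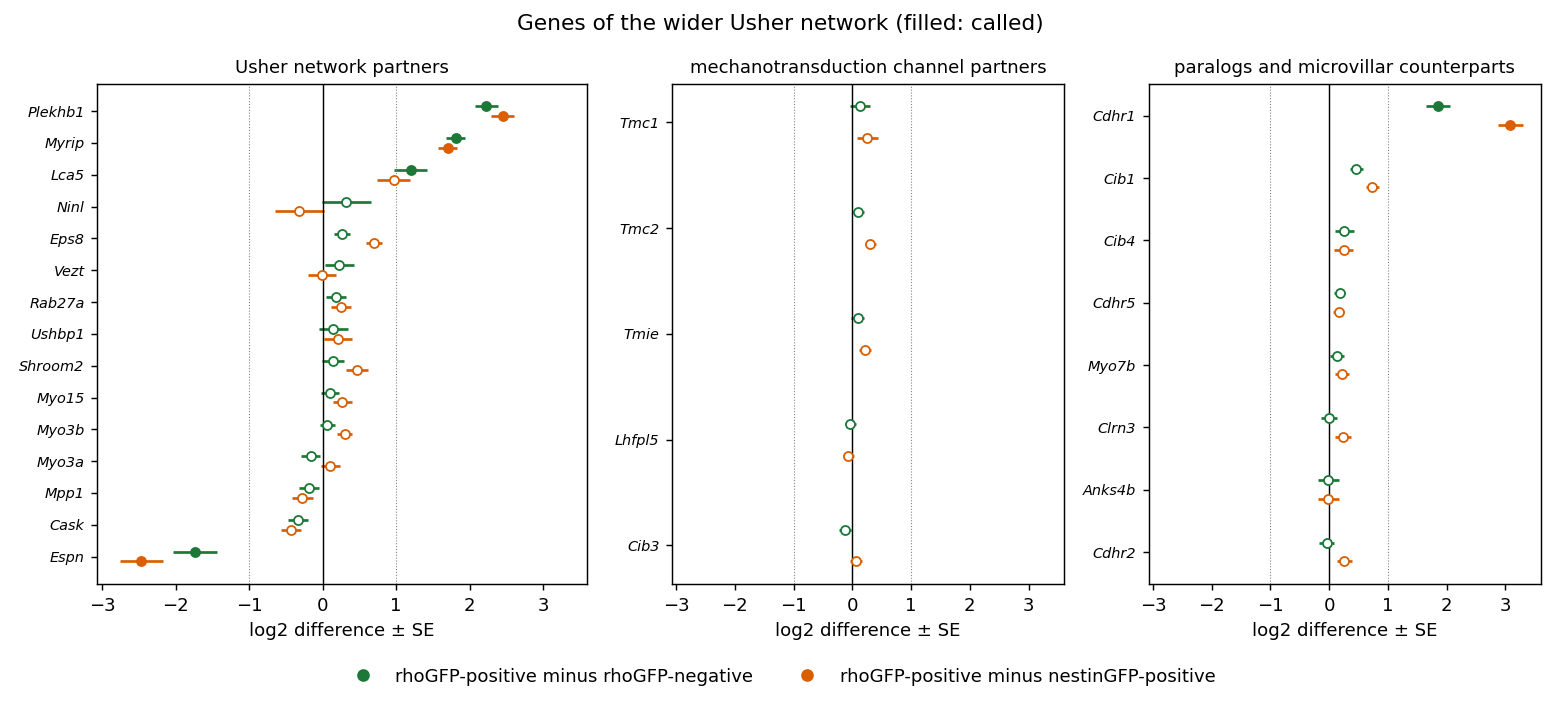
Log2 difference with SE (x axis) of the measured genes in 3 lists around the Usher complex, for rhoGFP-positive minus rhoGFP-negative and minus nestinGFP-positive cells. Filled points are called: Plekhb1, Myrip and Cdhr1 are higher in both comparisons, Lca5 is called higher at 1.20 in the first, Espn is lower at -1.74 and -2.47, and the 5 genes of the transduction channel list have no filled point.

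Pcdh15 in hair cells joins a transduction channel made of Tmc1, Tmc2, Lhfpl5, Tmie and a Cib protein. None of the 5 genes of that list, Tmc1, Tmc2, Lhfpl5, Tmie and Cib3, was called by limma in any of the 3 comparisons. Tmc2 differed by 0.30 (adjusted p = 0.0311) in rhoGFP-positive minus nestinGFP-positive cells, under the minimum size. In that comparison 35.8% of all genes had an adjusted p below 0.05. The list medians were 0.09, 0.21 and 0.12, beside 0.01, 0.06 and 0.03 over all genes. The mean log2 signal of the 5 genes lay between 4.73 and 5.02 on all arrays. That is below the median signal of every array, in all 3 groups.

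Of 9 paralogs and microvillar counterparts of the members, 8 were measured. Beside 3.61%, 5.06% and 0.385% of all genes called higher in the 3 comparisons, 1 of the 8 was called higher in each. This was Cdhr1, the photoreceptor cadherin at the base of outer segment discs. It read 13.1, 13.4 and 13.1 in rhoGFP-positive, 11.4, 11.5 and 11.1 in rhoGFP-negative and 10.5, 10.2 and 9.62 in nestinGFP-positive cells, 3 groups without overlap. It was 3.60-fold (1.85 ± 0.21, adjusted p = 0.000158) and 8.48-fold higher (3.08 ± 0.21, adjusted p = 5.06e-06) in rhoGFP-positive cells, and 2.36-fold higher in rhoGFP-negative than nestinGFP-positive cells (1.24 ± 0.21, adjusted p = 0.0245). Cib1, a paralog of Cib2, differed by 0.46 (adjusted p = 0.0127) and 0.73 (adjusted p = 0.000606), below the minimum size, and its dimmer probe set by 1.52 (adjusted p = 5.93e-05, called) against nestinGFP-positive cells.

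The genes most like Myo7a over the 9 arrays, by Pearson's r and as a description of arrays that fall in 3 groups, were Maea (0.976), Atpaf1 (0.973) and Mboat1 (0.963). Mboat1, a membrane acyltransferase, read 8.64, 9.02 and 9.0 in rhoGFP-positive, 7.44, 7.45 and 8.07 in rhoGFP-negative and 8.19, 8.36 and 8.61 in nestinGFP-positive cells. It thus had the order of groups seen in Myo7a, while Maea varied only between 8.98 and 9.24. Those most like Pcdh15 were Dmxl2 (0.998), Pde6b (0.994) and Flcn (0.994). Pde6b, a subunit of the rod phosphodiesterase and 1 of the rod markers, read 12.5, 12.5 and 12.4, then 9.81, 9.19 and 8.34, then 8.18, 7.70 and 6.72, and its replicates had the same order as those of Pcdh15 in the latter 2 groups. Among the members, r with Pcdh15 was 0.750 for Cdh23, 0.568 for Whrn, 0.403 for Myo7a, -0.00466 for Clrn1, -0.861 for Ush1c and -0.864 for Adgrv1.

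Across the series, the median log2 signal of an array lay between 6.08 and 6.17, arrays of a group correlated at 0.985 to 0.996, and the median SE of a difference was 0.141. Progenitor and amacrine markers were called lower in rhoGFP-positive than in rhoGFP-negative cells in 6 of 7 genes each, beside 7.32% of all genes. Müller glia markers were called lower in 5 of 8, with Clu called higher (1.05, limma adjusted p = 0.00526). Ganglion cell markers were called lower in 1 of 6 and microglia markers in 0 of 7. Endothelial markers were called lower in 2 of 6, Kdr and Cldn5, while Pecam1, Cdh5, Tie1 and Esam differed by 0.10, 0.01, 0.06 and 0.09. The 3′ minus 5′ log2 signal of the actin control was 0.85 to 0.97 in rhoGFP-positive, 0.64 to 0.68 in rhoGFP-negative and 0.40 to 0.99 in nestinGFP-positive cells. The small-subunit ribosomal RNA control stood at 12.1 to 13.6 on the replicate 1 arrays and 9.65 to 10.4 on the others. The part of either control in the members' differences was not tested.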

How the data were processed

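Expression was measured on 9 Affymetrix arrays of FAC-sorted retinal cells, hybridised with biotinylated cRNA per the labels' protocols. The deposited values were log2 signals made by the authors with RMA, per the submitters' processing notes, which name no version in the sources used here. That method equalises the distribution of the arrays, so a change shared by most genes is removed and low signals are compressed. Depth has no counterpart on arrays, and 3 arrays a group limit the precision.

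Of 45101 probe sets, 64 controls were left out, 34945 carried 1 gene symbol, 932 several and 9160 none, and 34741 of the single symbols were looked up by Entrez ID. The probe set with the highest mean represented each of 18193 genes. All 9 arrays were fitted together with limma 3.58.1 in R 4.3.3, tested on simulated data, with Benjamini-Hochberg adjustment over all genes. Calls needed an adjusted p below 0.05 and a log2 difference of at least 1 in size. Confidence levels are 95%. A separate fit of all 45037 probe sets was added after the data were seen. The 3 comparisons share groups.

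The members and the gene lists were chosen with earlier results of these data known. The members, the lists' called genes, the defining markers of other tissues and the 3 genes most like Myo7a and Pcdh15 are named, and other genes were named after their values were seen. P-values measure the spread between pooled samples that the labels call biological replicates. Between arrays with the same number, deviations from the group means had correlations of 0.62, 0.45 and 0.45 for the rhoGFP groups, of 0.54, 0.15 and 0.23 between rhoGFP-negative and nestinGFP-positive cells, and of 0.52, -0.0081 and 0.25 between rhoGFP-positive and nestinGFP-positive cells. By the rule that each exceed 0.1 the numbers pair the first 2 of these, from the data and not from a stated design. Between unlike numbers the highest correlation was 0.074 for the rhoGFP groups. It was 0.22 between rhoGFP-negative replicate 2 and nestinGFP-positive replicate 3, above the 0.15 of the replicates numbered 2. Pairing was thus not clear between rhoGFP-negative and nestinGFP-positive cells, which differ in line and age. Promoter windows were RefSeq's, of GRCm38.p6, matched by symbol for 8 of 9 members. Figures were drawn with matplotlib 3.10.9.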

Additional observations from a re-analysis of the deposited data

How the results depend on the processing

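The calls of Myo7a and Pcdh15 in rhoGFP-positive cells held under every alternative run, with Myo7a at 1.56 to 1.84 and Pcdh15 at 1.83 to 2.59 against rhoGFP-negative cells as each array was left out. Over all member differences and alternatives, 358 values kept direction and side of the threshold, 5 lost it, 2 gained it and 4 changed sign. The comparison of rhoGFP-negative with nestinGFP-positive cells was the least stable. Its 180 called genes became 28 with only the 6 arrays compared, 453 with the replicate block, 370 with no minimum difference and 23 at an adjusted p below 0.01, and 19 to 559 as each array was left out (19 without nestinGFP-positive replicate 2, 559 without rhoGFP-negative replicate 3). Its 1 called member became 0 with only the 6 arrays, 2 with the replicate block, 0 at an adjusted p below 0.01, and 0 to 2 as each array was left out. With no minimum difference the other comparisons called 4417 genes in place of 1988 (rhoGFP-positive against rhoGFP-negative) and 6508 in place of 2838 (against nestinGFP-positive, with 5 members in place of 1). With the replicate block they called 2046 and 2853 genes, and 2 and 1 members, and the block changed no other member's call. Leaving out each array gave 1818 to 2146 and 2760 to 2974 genes.

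Uncalled differences near 0 changed sign. Between rhoGFP-negative and nestinGFP-positive cells Whrn averaged over its probe sets was -0.078, and it ranged from -0.13 to 0.38 as each array was left out, while Cdh23 ranged from -0.062 to 0.0095. Clrn1 was -0.11 to 0.046 in rhoGFP-positive minus nestinGFP-positive cells. The cause of these shifts was not tested. Cdh23, Ush1c and Clrn1 were under the filter on dim genes and have no value there.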
